A study of Mus musculus with 6 samples.

Results

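Nitric oxide is made from arginine, and the 10 genes described here cover the synthases, the supply of their cofactor tetrahydrobiopterin (BH4) and the supply and competing use of arginine. They were chosen by gene symbol, by a rule that uses no measured value but was set with earlier results of these data known, and all 10 were found among the 23282 genes in the deposited count table. The 2 synthases were Nos2 and Nos3, and the BH4 genes were Gch1, Gchfr, Pts and Spr. The arginine carrier was Slc7a2 and the arginase was Arg2. Ddah1 encodes an enzyme that breaks down a natural inhibitor of the synthases, and Ddah2 encodes a related protein. The counts came from primary hepatocytes of C57BL/6N mice, isolated by collagenase perfusion of the liver and plated for 3 h before treatment. The control group (3 samples) received no treatment and the IL-1β group (3 samples) received recombinant IL-1β protein for 24 h. The labels give no dose and no age and do not say whether the replicates came from separate animals, so the p-values below measure only the spread between these samples, which may be technical. RNA was sequenced by QuantSeq, a method that reads the 3′ end of each mRNA.

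Nitric oxide synthases convert arginine to nitric oxide and citrulline and work only when BH4 is bound. Nos2 is the inducible form, which immune cells and hepatocytes make in response to inflammatory signals, whereas Nos3 is the form typical of endothelium. BH4 is built from GTP by Gch1, Pts and Spr in turn, arginine enters the cell through cationic amino acid carriers such as the Slc7a2 product, and arginases draw on the same arginine to make ornithine and urea.

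The 6 libraries held between 9538741 and 11105408 counts, of which the ribosomal RNA precursor Rn45s took between 11.7% and 14.2%. Levels are given as CPM, in which counts are scaled by the library total multiplied by a TMM factor. TMM estimates this factor from the counts to adjust for differences in library composition. The factors lay between 1.007 and 1.039 in controls and between 0.976 and 0.987 after IL-1β, so CPM totals were not equal across libraries. In 1 library, 3 counts (the limit that a count of 0 allows) corresponded to between 0.269 and 0.321 CPM, and this limit allows for counting error alone. The first principal component of log2 CPM held 75.9% of the variance and separated the 2 groups. IL-1β was compared with control by the edgeR quasi-likelihood test, and p was adjusted by the Benjamini-Hochberg method for the 11657 genes that passed a filter on low counts. In these bulk samples, fewer cells of a type and less RNA per cell cannot be told apart.

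Slc7a2, Arg2 and Gch1 rose after IL-1β and no member fell at an adjusted p below 0.05. Of the 9 members tested, 3 were higher, beside 6.97% of all genes tested, and 0 were lower, beside 6.44% of all genes tested. DESeq2 and limma gave the same counts of 3 and 0. Of the 11657 genes tested, DESeq2 called 780 higher and 716 lower, and limma on log2(CPM + 1) called 826 and 768. At an unadjusted p below 0.05 edgeR counted 4 members higher and 1 lower. The share of all genes at that unadjusted threshold is not given here, so unadjusted counts in this text have no background beside them. The median log2 fold change of the 9 was 0.15, against -0.0018 over all genes tested. Nos2 failed the filter on low counts. In 5 of the 10 members (Nos2, Gch1, Spr, Slc7a2 and Arg2) every IL-1β sample lay above every control, beside 11.4% of the 16189 genes with a count in any library, and in 0 of the 10 every IL-1β sample lay below, beside 11.2%. Among the 9 tested, 4 lay above, where 1630 of the 11657 genes tested lay above and 1652 below. Of all called genes 52.0% were higher, and with scaling to total counts this share was 39.6%.

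**Figure D1:**
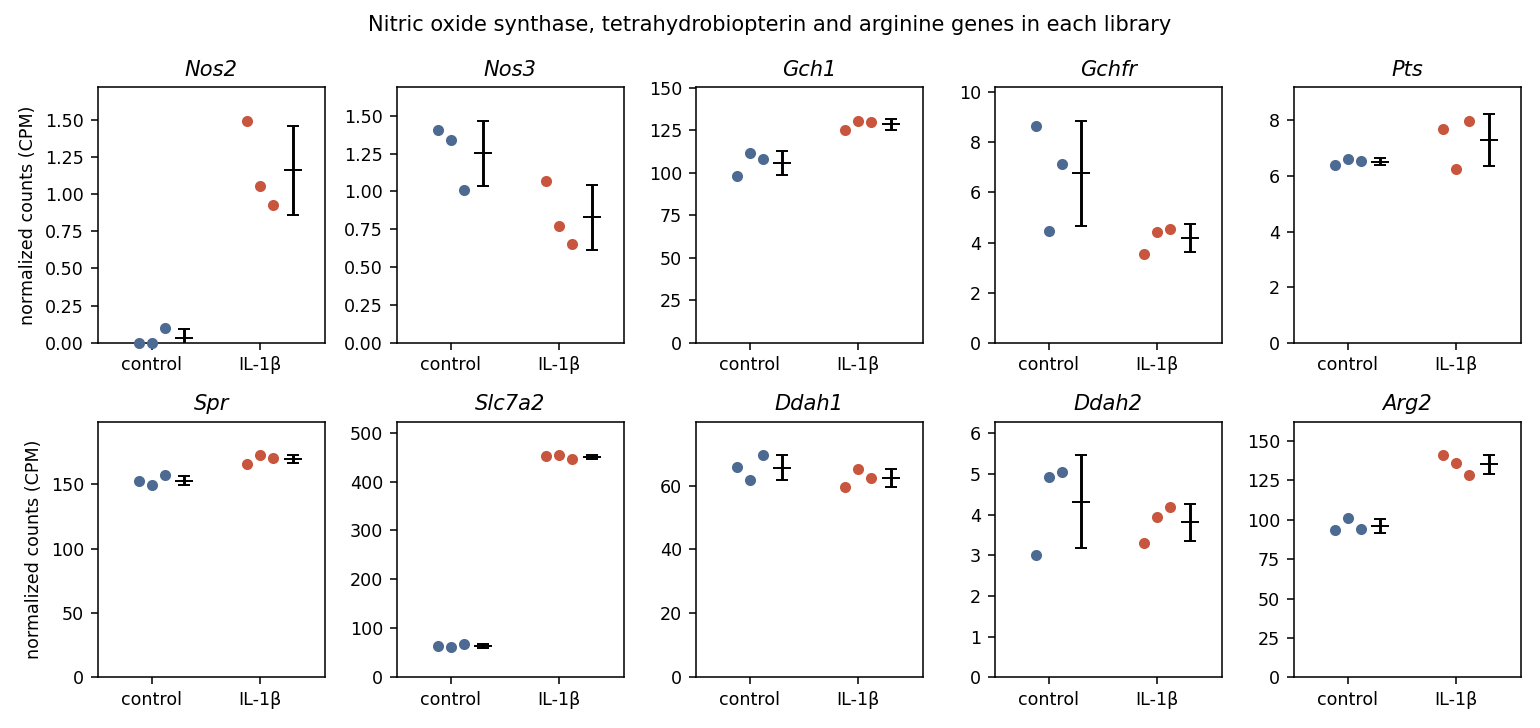
Level of each of the 10 genes in each library, as CPM on the vertical axis, for control (blue) and IL-1β (red), with 1 point per library and a bar for the mean ± SD (n = 3). Each axis starts at 0 and has its own scale. Slc7a2 lies between 61.0 and 68.7 CPM in controls and between 446 and 454 CPM after IL-1β, and Nos2 stays below 1.5 CPM.

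Nos2, at chr11:78920859-78960124 on the plus strand (GRCm38), was counted 0, 0 and 1 times in the controls and 14, 11 and 10 times in the IL-1β libraries. Every IL-1β library lay above the limit of 3 counts and every control below it. The summed counts were 1 and 35, a rate ratio of 36.4 with an exact 95% interval from 6.12 to 1478 that covers counting error only. The gene was too low for the test as set. Without the filter on low counts, edgeR gave a log2 fold change of 4.74 and an adjusted p of 0.0029, and this fitted value depends on the prior count. The level after IL-1β was 1.16 ± 0.298 CPM (SD, n = 3), so the groups differed while the transcript remained among the scarcest of the set.

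Nos3, at chr5:24364819-24384474 on the plus strand, was counted 15, 15 and 10 times in the controls and 10, 8 and 7 times after IL-1β. The groups met at 10 counts and overlapped. The level was 1.25 ± 0.215 CPM in controls and 0.829 ± 0.216 CPM after IL-1β. The log2 fold change was -0.60, with a standard error of 0.53 and an edgeR adjusted p of 0.565. The 95% interval of this log2 fold change ran from -1.64 to 0.44, so a fall or a small rise could not be told apart at this depth. The last exon of Nos3 overlaps that of Atg9b, an autophagy gene on the other strand, over 294 nt at chr5:24384181-24384474. Of the 75-nt windows in the last 500 nt of Nos3 transcripts, 38.4% matched Atg9b, and whether the counting used strand is not given in the sources used here. Atg9b was counted 13, 18 and 10 times in controls and 15, 8 and 6 times after IL-1β, and the sum of both genes gave a log2 fold change of -0.50 with an adjusted p of 0.530. Nos1, the neuronal synthase and no member of the set, had between 0 and 2 counts in every library.

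Endothelial cells and macrophages can also carry synthase transcripts, so the marker lists of other liver cells were counted. Of 10 macrophage and Kupffer cell markers tested, 0 were called by edgeR, DESeq2 or limma, with 3 higher and 0 lower at an unadjusted p below 0.05 in edgeR. The 3 were Cd74, Marco and C1qa. The median log2 fold change of the 10 was 0.38, with 7 above 0 and Cd68, Ctss and Cd5l below. All 13 listed macrophage and Kupffer cell markers summed to between 247 and 277 CPM in controls and between 252 and 285 CPM after IL-1β. Most of this sum was Cd68, at 192 ± 17.4 and 184 ± 12.3 CPM. Of the markers of resident Kupffer cells, Cd5l had between 150 and 224 counts, Clec4f between 0 and 27 and Timd4 at most 1. Marco had 41, 32 and 52 counts in controls and 68, 67 and 57 after IL-1β. Of 8 endothelial markers tested, Lyve1 was higher (log2 fold change 0.45) and Kdr (-1.49) and Clec4g (-2.87) were lower by edgeR, DESeq2 and limma, with 1 higher and 4 lower at an unadjusted p below 0.05 in edgeR. The median log2 fold change of the 8 was -0.41. All 10 listed endothelial markers summed to between 85.9 and 93.9 CPM in controls and between 81.1 and 88.3 CPM after IL-1β. For stellate cells 0 of 3 markers tested were called, also by DESeq2 and limma and at an unadjusted p below 0.05 in edgeR. All 8 listed summed to between 20.1 and 22.8 CPM in controls and between 21.8 and 28.4 CPM after IL-1β. Among them Col1a1, not tested, had 0, 2 and 12 counts in controls and 2, 0 and 36 after IL-1β. For cholangiocytes 1 of 2 was called by edgeR, Spp1, which was lower, and Sox9, with a log2 fold change of 0.21 and an edgeR adjusted p of 0.0519, was called higher by DESeq2 and limma, while Krt19, Krt7, Epcam and Cftr had between 0 and 6 counts, and the summed level of the list was between 316 and 329 CPM in controls and between 236 and 240 CPM after IL-1β. Of the neutrophil markers, S100a8 was counted 0 times in every control and 19, 36 and 51 times after IL-1β, and S100a9, Mpo, Elane and Ltf were at 0 in all 6 libraries. Of 8 hepatocyte markers 7 were lower by edgeR, 6 by DESeq2 and 5 by limma, among them albumin (Alb), which had 16200 ± 516 CPM in controls and 14104 ± 577 CPM after IL-1β. The part of these cell types in the values of Nos2 and Nos3 was not tested.

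Gch1, which catalyses the rate-limiting opening step of BH4 synthesis, lies at chr14:47153895-47189402 on the minus strand. It reached 97.9, 112 and 108 CPM in the controls and 125, 131 and 130 CPM after IL-1β. The lowest IL-1β library lay above the highest control. The means were 106 ± 7.15 and 128 ± 3.04 CPM (SD, n = 3), and the log2 fold change was 0.28 with a standard error of 0.076, a 1.21-fold rise with an edgeR adjusted p of 0.0135. This call was lost with total-count scaling (adjusted p 0.0546) and with an unmoderated test on log2(CPM + 1) (0.108). It was also lost without control replicate 1 (0.0502), without replicate 2 (0.0604) or 3 (0.0502) of IL-1β, with the direction kept in each case.

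Gchfr encodes the regulatory protein through which BH4 restrains the Gch1 enzyme, and lies at chr2:119167788-119172389 on the plus strand. It reached 8.64, 4.48 and 7.15 CPM in the controls and 3.53, 4.42 and 4.56 CPM after IL-1β. Control replicate 2 fell within the range of the IL-1β libraries, so the groups overlapped. The log2 fold change was -0.69 with a standard error of 0.28 and an edgeR adjusted p of 0.122. Without control replicate 2 it was -0.91 with an adjusted p of 0.0354, and without control replicate 1 it was -0.47 with an adjusted p of 0.398. No alternative other than leaving out control replicate 2 gave a call, so the size of the difference depended on single control libraries.

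Within each library the counts of Gch1 were set against those of Gchfr, a ratio that does not depend on how libraries are scaled. There were 11.3, 24.96 and 15.1 Gch1 counts per Gchfr count in the controls and 35.4, 29.6 and 28.5 after IL-1β. Each IL-1β library lay above each control, and the mean log2 ratio (0.5 added to each count) was 0.93 higher. The exact two-sided permutation test gave p = 0.1, the smallest that 3 samples against 3 can give, and 0.125 after Benjamini-Hochberg adjustment over the 5 ratios compared. Without control replicate 2 the difference was 1.24 and without control replicate 1 it was 0.671.

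Pts, the enzyme of the middle step, at chr9:50521617-50528641 on the minus strand, had 6.39, 6.62 and 6.55 CPM in controls and 7.70, 6.24 and 7.99 CPM after IL-1β. The groups overlapped, with a log2 fold change of 0.16, a standard error of 0.23 and an edgeR adjusted p of 0.741. Spr, the reductase of the closing step, at chr6:85133680-85137764 on the minus strand, had 152, 149 and 157 CPM in controls and 166, 173 and 170 CPM after IL-1β. The groups of Spr did not overlap, but the log2 fold change of 0.15 (standard error 0.068, 95% interval from 0.016 to 0.28) did not pass the test, with an adjusted p of 0.178. The 3 synthetic enzymes summed to 265 ± 7.77 CPM in controls and 305 ± 5.90 CPM after IL-1β, a 1.151-fold difference with no overlap between groups (exact permutation p = 0.1). QuantSeq reads each mRNA at its end and its counts were therefore set side by side without division by length. On that count scale Spr made up between 55.8% and 59.3% of the summed counts of the 3 enzymes in controls and between 55.3% and 55.8% after IL-1β.

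The promoters of Gch1, its regulator Gchfr and Spr are shown because Gch1 was the BH4 gene that passed the test, Gchfr was set against it in a ratio, and Spr was the other BH4 gene whose groups did not overlap. Each holds 300 nt, from 250 nt before the RefSeq start site to 50 nt after it, written 5′ to 3′ on the strand of the gene and taken from RefSeq on GRCm38.p6. They lie at chr14:47189364-47189663 (minus strand) for Gch1, chr2:119167538-119167837 (plus strand) for Gchfr and chr6:85137715-85138014 (minus strand) for Spr. Capitals mark every match on either strand to the motifs searched, which were the NF-κB consensus, C/EBP (TTGCNNAA), AP-1 (TGANTCA), STAT (TTCNNNGAA), the hypoxia element (ACGTG), the box of the core promoter named for its letters (TATAAA) and the GC box (GGGCGG).
Gch1: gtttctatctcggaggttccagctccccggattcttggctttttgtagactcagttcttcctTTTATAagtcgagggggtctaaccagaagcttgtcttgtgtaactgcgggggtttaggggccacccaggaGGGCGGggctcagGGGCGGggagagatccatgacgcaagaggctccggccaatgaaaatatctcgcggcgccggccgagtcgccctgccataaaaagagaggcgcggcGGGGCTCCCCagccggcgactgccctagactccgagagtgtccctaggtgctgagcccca
Gchfr: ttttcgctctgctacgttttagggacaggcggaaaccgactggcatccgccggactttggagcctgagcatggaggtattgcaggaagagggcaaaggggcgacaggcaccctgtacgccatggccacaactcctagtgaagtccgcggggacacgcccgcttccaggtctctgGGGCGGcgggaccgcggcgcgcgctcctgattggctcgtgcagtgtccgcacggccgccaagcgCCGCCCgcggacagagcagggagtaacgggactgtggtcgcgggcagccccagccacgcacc
Spr: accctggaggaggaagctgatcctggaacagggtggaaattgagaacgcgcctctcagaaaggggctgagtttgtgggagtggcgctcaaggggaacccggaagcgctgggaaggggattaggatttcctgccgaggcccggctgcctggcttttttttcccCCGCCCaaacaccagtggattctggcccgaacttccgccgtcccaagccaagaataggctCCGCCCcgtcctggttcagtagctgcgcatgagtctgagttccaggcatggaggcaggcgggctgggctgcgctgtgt
In Gch1 the NF-κB consensus was matched from position -10 to -1 before the start, and GC boxes from -118 to -113 and from -105 to -100. TATAAA was matched on the opposite strand from -188 to -183. Gchfr and Spr each held 2 GC boxes and no match to the other motifs. RefSeq promoters were found for 6 members (Gch1, Gchfr, Pts, Spr, Ddah1 and Ddah2), of which 1 held the NF-κB consensus, beside 8.46% of 32841 mouse promoters of the same length. GC boxes were found in 5 of the 6, all but Ddah1, beside 35.7% of all promoters. C/EBP, AP-1 and hypoxia motifs had 0 matches in the 6, beside 10.8%, 7.81% and 19.6% of all promoters. STAT had a match in Ddah2, beside 8.30%, and TATAAA in 1 of the 6 (Gch1), beside 13.6%. The ratio of observed to expected CpG was 0.738 in Gch1, 0.924 in Gchfr and 0.575 in Spr, each above the median of 0.384 over all promoters. A match of letters is a description and does not show a bound site, and the absence of one concerns only this window. Nos2, Nos3, Slc7a2 and Arg2 had no entry.

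Slc7a2, a cationic amino acid carrier that brings arginine into the cell, had the largest fold change of the 9 members tested. It lies at chr8:40862367-40922070 on the plus strand. Its raw counts were 680, 681 and 682 in the controls and 4228, 4724 and 4799 after IL-1β, which corresponds to 63.9, 61.0 and 68.7 CPM and to 452, 454 and 446 CPM. The libraries within each group lay close together and the groups were far apart. The level rose 6.99-fold from 64.5 ± 3.92 to 451 ± 4.02 CPM, a log2 fold change of 2.80 with a standard error of 0.072 and an edgeR adjusted p of 2.7e-19. Among the 11657 genes tested it ranked 2 by p and 47 by log2 fold change from the highest. Across the alternative settings its log2 fold change stayed between 2.75 and 2.81, and between 2.77 and 2.85 when 1 library was left out. An antisense transcript, Gm26584, shares 635 nt with exons at the start of Slc7a2 and 20.7% of the windows at the ends of its annotated transcripts, and it has no row in the table, while the assignment of shared reads is not given in the sources used here.

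The related carriers Slc7a1, the widely expressed form, and Slc7a3 were set against it. Slc7a1 also rose, from 17.6 ± 0.584 to 32.9 ± 1.79 CPM, with a log2 fold change of 0.90 and an edgeR adjusted p of 4.8e-06. There were 3.76, 3.35 and 3.90 Slc7a2 counts per Slc7a1 count in the controls and 14.6, 13.2 and 13.3 after IL-1β. The ratio rose in every comparison of an IL-1β library with a control, by 1.90 on the log2 scale (exact permutation p = 0.1, adjusted 0.125). Slc7a3 had between 1 and 16 counts. Slc7a2 made up between 76.9% and 78.3% of the counts of the 3 carriers in controls and between 92.7% and 93.3% after IL-1β, and the 3 together went from 83.1 ± 4.32 to 485 ± 4.52 CPM, a 5.83-fold difference.

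**Figure D2:**
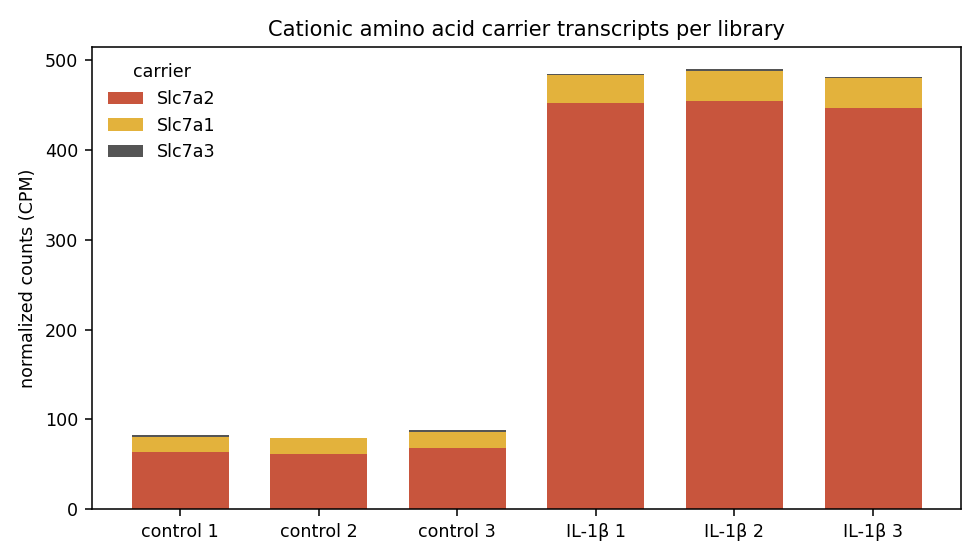
Stacked bars of the cationic amino acid carriers Slc7a2, Slc7a1 and Slc7a3 in each of the 6 libraries, as CPM. The controls sum to between 79.2 and 87.8 CPM and the IL-1β libraries to between 480 and 489 CPM, with Slc7a2 the main part of every bar.

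Of 12 other carriers of arginine and related amino acids 8 were tested, 3 rose and 0 fell in edgeR, DESeq2 and limma, with 4 and 0 at an unadjusted p below 0.05 in edgeR. Besides Slc7a1, these were Slc7a6, which exchanges cationic for neutral amino acids with sodium, and Slc3a2, the heavy chain that Slc7a6 needs to reach the membrane. Slc7a6 was counted 18, 6 and 14 times in controls and 101, 91 and 73 times after IL-1β, with no overlap and a log2 fold change of 2.85 (standard error 0.35, edgeR adjusted p 1.4e-06). Slc3a2 rose by 0.25 on the log2 scale (adjusted p 0.0189). The call of Slc3a2 was lost with total-count scaling (0.0799), with the unmoderated test (0.272), without control replicate 1 (0.0755), without replicate 2 (0.0764) or 3 (0.102) of IL-1β. The median log2 fold change of the 8 was 0.26.

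Ddah1 breaks down asymmetric dimethylarginine, a methylated arginine that inhibits the synthases, and Ddah2 encodes a related protein. Ddah1, at chr3:145758692-145894277 on the plus strand, had 65.8, 61.7 and 69.4 CPM in controls and 59.4, 65.2 and 62.3 CPM after IL-1β. Ddah2, at chr17:35059035-35062099 on the plus strand, had 3.01, 4.92 and 5.04 CPM in controls and 3.31, 3.94 and 4.18 CPM after IL-1β. Both pairs of groups overlapped. The log2 fold changes were -0.07 for Ddah1 (95% interval from -0.25 to 0.10, edgeR adjusted p 0.699) and -0.18 for Ddah2 (from -0.78 to 0.43, 0.807), so for Ddah2 a sizeable change in either direction was not excluded at this depth. Ddah1 took between 92.6% and 95.6% of the counts of the pair in controls and between 93.7% and 94.7% after IL-1β. The log2 ratio of Ddah2 to Ddah1 differed by -0.07 between groups (exact permutation p = 0.9) and changed sign without control replicate 2 or 3.

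The enzymes that make methylated arginine were examined beside them. Of 10 genes for arginine methylation and for a further route of its breakdown 9 were tested, and 0 were called higher or lower by edgeR, DESeq2 or limma, with 2 higher and 0 lower at an unadjusted p below 0.05 in edgeR. Their median log2 fold change was 0.10.

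Arg2, the mitochondrial arginase, lies at chr12:79130788-79156301 on the plus strand. It reached 93.3, 101 and 93.9 CPM in the controls and 141, 136 and 129 CPM after IL-1β, with no overlap. The mean rose 1.41-fold from 96.1 ± 4.37 to 135 ± 6.26 CPM, a log2 fold change of 0.49 with a standard error of 0.076 and an edgeR adjusted p of 3.4e-05. The call was kept under every alternative fit of the Arg2 counts alone, with log2 fold changes between 0.44 and 0.53. The other arginase, Arg1, the urea cycle enzyme that liver normally makes in abundance, had 86, 65 and 39 counts in controls and 63, 60 and 56 after IL-1β, with a log2 fold change of -0.02 (edgeR adjusted p 0.984). Arg1 was therefore low in these cultures, at 5.94 ± 2.08 and 5.90 ± 0.774 CPM, and Arg2 took between 92.03% and 96.0% of arginase counts in controls and between 95.4% and 96.1% after IL-1β. These shares take all Arg2 counts as Arg2, although they may hold reads of the overlapping gene Vti1b. Among the other urea cycle genes, Cps1 had 2.65 ± 0.765 and 2.06 ± 0.213 CPM and Ass1 no more than 13 counts in any library. In controls and after IL-1β, Otc (25.5 and 17.7 CPM), Asl (24.9 and 21.5 CPM) and Nags (23.3 and 25.1 CPM) were more abundant than these.

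The end of Arg2 overlaps the last exon of Vti1b, a vesicle fusion gene on the other strand, over 285 nt at chr12:79156017-79156301. Of the 75-nt windows in the last 500 nt of Arg2 transcripts 49.5% matched Vti1b. Vti1b was counted 1285, 1464 and 1223 times in controls and 1541, 1710 and 1656 times after IL-1β, and had a log2 fold change of 0.36 with a standard error of 0.072 and an edgeR adjusted p of 0.00071. The 2 genes followed each other closely from library to library, and without knowing the strand setting their reads cannot be told apart. There were 0.773, 0.772 and 0.762 Arg2 counts per Vti1b count in controls and 0.856, 0.827 and 0.835 after IL-1β, a difference of 0.13 on the log2 scale with no overlap, in a ratio chosen after the values were seen. Summed, both genes gave a log2 fold change of 0.42 with a standard error of 0.067 and an edgeR adjusted p of 4.6e-05.

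**Figure D3:**
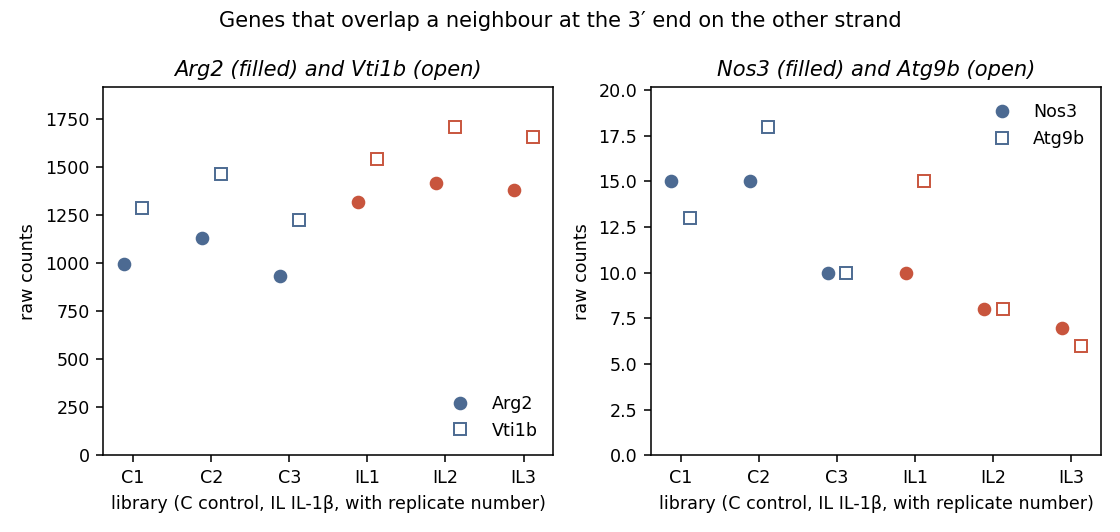
Raw counts in each library for Arg2 and Vti1b (left) and for Nos3 and Atg9b (right), pairs whose last exons overlap on opposite strands, with the member filled and its neighbour open, controls blue and IL-1β red. Arg2 runs from 932 to 1130 in controls and from 1319 to 1415 after IL-1β with Vti1b above it in every library, whereas Nos3 and Atg9b stay at or below 18 counts.

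The balance of synthase and arginase transcripts was compared as counts of Nos2 per count of arginase in the same library. Nos2 per Arg2 was 0, 0 and 0.00107 in the controls and 0.0106, 0.00777 and 0.00723 after IL-1β. The IL-1β libraries were higher without overlap, yet the Arg2 count still exceeded that of Nos2 by a wide margin in each of them. The Arg2 count may hold reads of Vti1b. The mean log2 ratio rose by 3.63 with 0.5 added to each count and by 2.88 with 1 added, so its size depends on that choice. Nos2 per Arg1 was 0, 0 and 0.0256 in controls and 0.222, 0.183 and 0.179 after IL-1β, a rise of 4.08 on the log2 scale with 0.5 added and of 3.33 with 1 added. Both ratios had an exact permutation p of 0.1 and an adjusted p of 0.125.

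**Figure D4:**
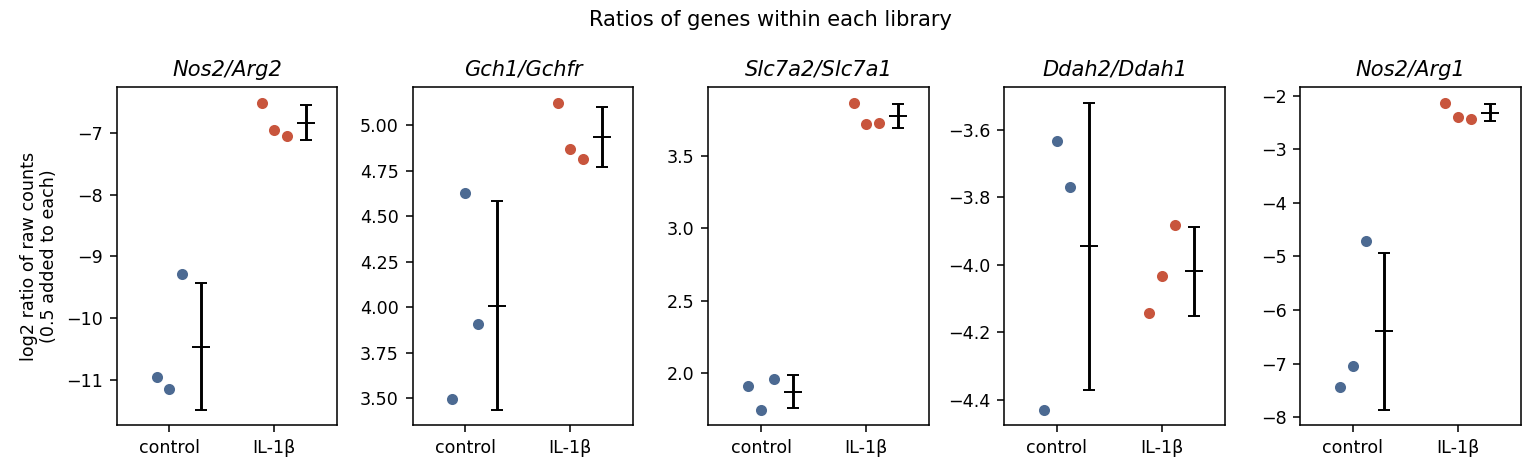
Log2 ratios of raw counts within each library (0.5 added to each count) for the 5 ratios compared, with 1 point per library and bars for the mean ± SD (n = 3), control in blue and IL-1β in red. The IL-1β libraries lie above all controls in 4 of the ratios, and the groups overlap for Ddah2/Ddah1. Each panel has its own vertical scale.

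Genes that recycle BH4 or use it for other reactions fell or did not pass the test. Of 12 listed 8 were tested, 0 were higher and 5 were lower by edgeR, DESeq2 and limma alike, with 0 and 5 at an unadjusted p below 0.05 in edgeR, and the median log2 fold change was -0.43. Pcbd1 and Pcbd2, dehydratases of BH4 recycling, had log2 fold changes of -0.39 (edgeR adjusted p 0.0050) and -0.46 (0.0128). Ddc, the decarboxylase that acts after the BH4-dependent hydroxylases, had -0.61 (0.0067), and Dnajc12, a chaperone of those hydroxylases, had -1.54 (0.0134). The calls of Ddc, Pcbd2 and Dnajc12 were lost without control replicate 3 (adjusted p 0.0521, 0.0565 and 0.0641). Those of Pcbd2 and Dnajc12 were lost without IL-1β replicate 1 (0.0662 and 0.0906), that of Dnajc12 without control replicate 1 (0.0552) and that of Pcbd1 without IL-1β replicate 2 (0.0684). With the unmoderated test Pcbd1 (0.193), Ddc (0.0824) and Dnajc12 (0.156) were not called. Qdpr, the main reductase of BH4 recycling, had -0.08 (0.751) and Cbr1, a carbonyl reductase, 0.06 (0.703). Th, Tph1 and Tph2, the hydroxylases of catecholamine and serotonin synthesis, had 0 counts in all 6 libraries.

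Genes whose products bind or regulate the synthases mostly did not pass the test. Of 11 listed 9 were tested, 1 rose and 1 fell by edgeR, DESeq2 and limma, with a median log2 fold change of -0.02. Nos1ap, an adaptor of the neuronal synthase, rose from 11.3 ± 1.34 to 28.2 ± 3.15 CPM (log2 fold change 1.32, edgeR adjusted p 2.3e-07). Nostrin, which guides the endothelial synthase within the cell, fell from 28.5 ± 0.877 to 19.6 ± 5.77 CPM (-0.54, 0.0183), a call lost without IL-1β replicate 1 (0.123), without IL-1β replicate 3 (0.171) and with the unmoderated test (0.284).

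Of 15 genes of arginine synthesis and use 12 were tested, 0 rose and 3 fell by edgeR, DESeq2 and limma, with 3 higher and 3 lower at an unadjusted p below 0.05 in edgeR, and the median log2 fold change was 0.01. Those that fell were Agmat, an agmatinase, with -1.16 (edgeR adjusted p 7.7e-05), Otc, the urea cycle enzyme that makes citrulline, with -0.53 (0.0056), and Gamt, the methyltransferase of creatine synthesis, with -0.85 (0.041). The call of Gamt was lost without control replicate 2 (0.230), IL-1β replicate 2 (0.142) or IL-1β replicate 3 (0.153), and those of Gamt (0.177) and Agmat (0.0664) with the unmoderated test.

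Of 10 genes that respond to nitric oxide or remove it 4 were tested, 2 rose and 0 fell by edgeR, DESeq2 and limma, with 2 and 0 at an unadjusted p below 0.05 in edgeR. These were Txn1, a thioredoxin, with 0.24 (edgeR adjusted p 0.0202) and its reductase Txnrd1 with 0.20 (0.0288). Both calls were lost with total-count scaling (0.0780 and 0.141), with the unmoderated test (0.289 and 0.122), without control replicate 3 (0.0505 and 0.0665), without IL-1β replicate 1 (0.112 and 0.119) and without its replicate 3 (0.0643 and 0.0589). Txn1 was also lost without control replicate 2 (0.179), and Txnrd1 without control replicate 1 (0.0664) and with upper-quartile scaling (0.0641). Gucy1a1 and Gucy1b1, the subunits of the nitric oxide receptor, had between 0 and 10 and between 0 and 4 counts and were not tested. Over all 6 lists, 50 of 70 genes were tested, 6 were higher, 9 were lower and the median log2 fold change was 0.05.

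**Figure D5:**
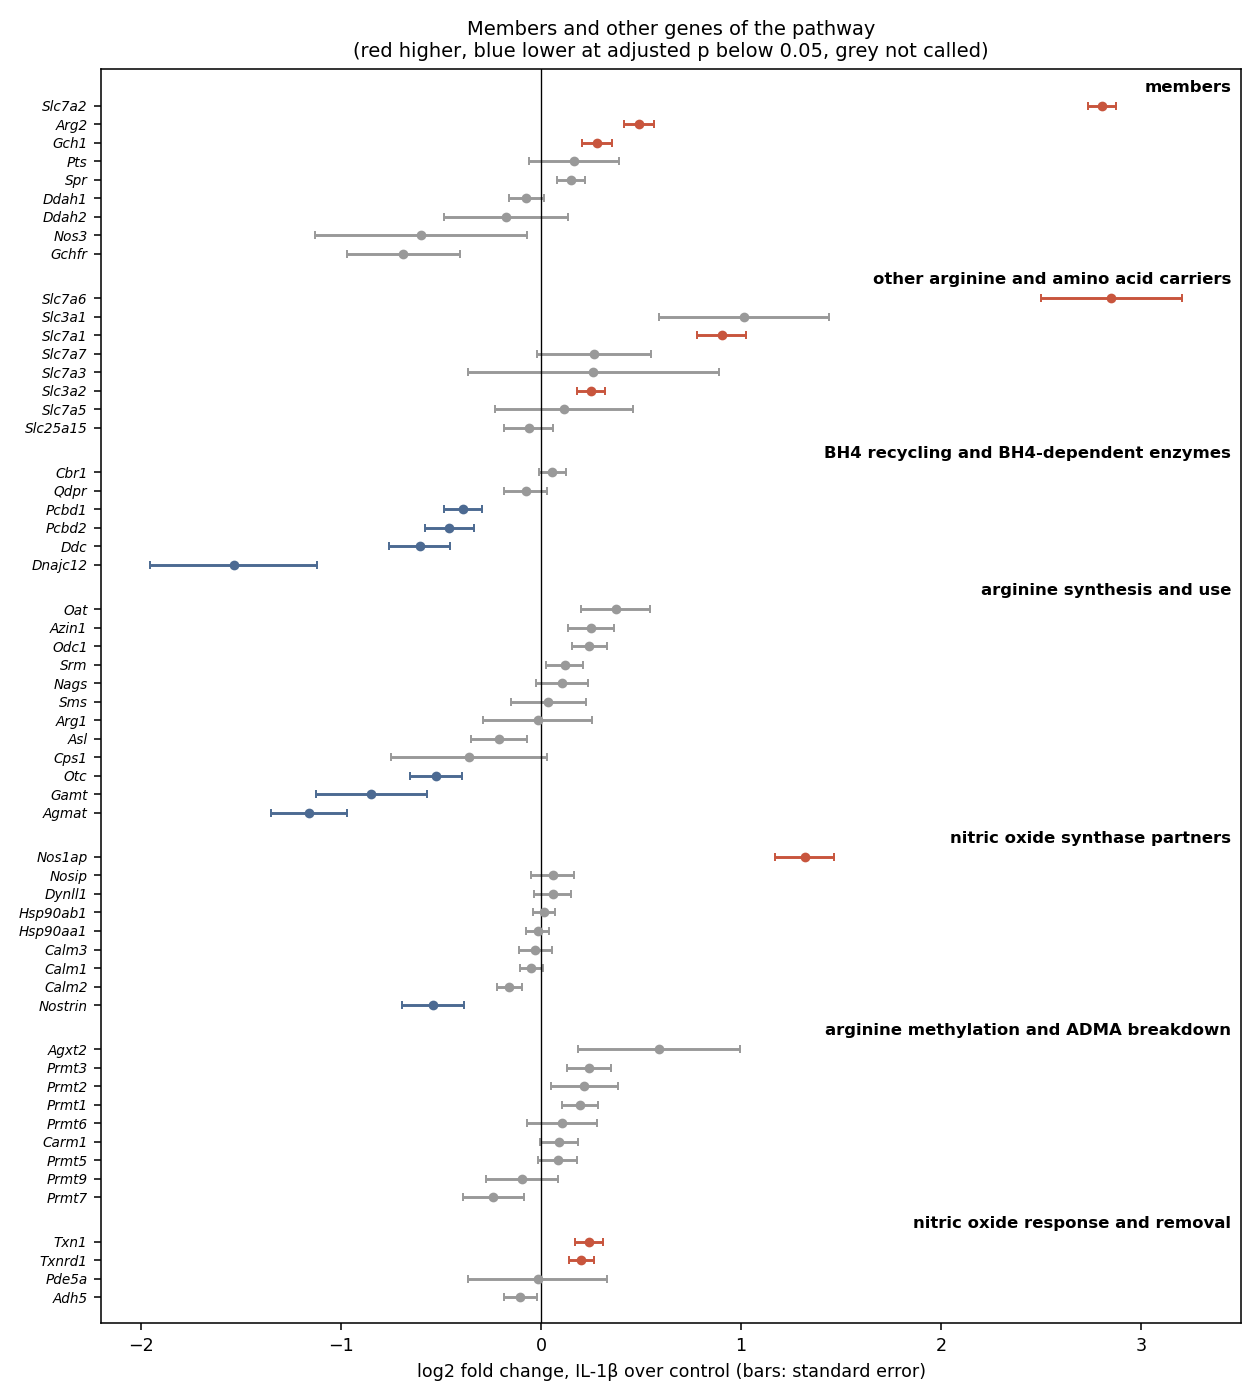
Log2 fold change of IL-1β over control on the horizontal axis, with its standard error, for the 9 members tested and for tested genes of the 6 related lists, grouped by list, with some listed genes not shown. Red marks genes higher and blue marks genes lower at an edgeR adjusted p below 0.05, and Slc7a2 (2.80) and Slc7a6 (2.85) lie farthest to the right.

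The genes whose log2(CPM + 1) pattern over the 6 libraries was closest to that of a member were found by the smallest root mean square difference after centring. For Slc7a2 these were Ccl5, a chemokine (difference 0.104, Pearson r 0.997), Dgat2, an enzyme of triglyceride synthesis (0.117, 0.999), and Pilrb2 (0.138, 0.996). Ccl5 went from 55.5 ± 7.23 to 398 ± 25.2 CPM and Dgat2 from 138 ± 10.2 to 832 ± 31.7 CPM. For Gch1 they were Serping1, an inhibitor of complement (0.030, 0.985), Thrb, a thyroid hormone receptor (0.032, 0.982), and Chp1 (0.033, 0.984). For Nos2 they were Fam13a (0.065, 0.994), Frk (0.072, 0.997) and Abca1 (0.095, 0.987), but with 0, 0 and 1 counts in controls the pattern of Nos2 on this scale is set by the pseudocount, and the fitted log2 fold changes of these genes were only 1.18, 1.20 and 1.01. All these values share the same 6 libraries and the same separation of 2 groups, and only describe how levels differ between these libraries.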

How the data were processed

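RNA of primary mouse hepatocytes (3 control and 3 IL-1β samples, grouped by the sample labels) was read at its 3′ ends by QuantSeq, in single-end reads of 75 nt. According to the labels, the authors aligned reads with Bowtie2 and normalized with edgeR (TMM and CPM); the submitters' processing notes name mm10 and GRCm38. The counting tool and its use of strand are not given in the sources used here. The authors deposited raw read counts per gene, which were used for all tests, and log2 values of normalized counts (CPM plus 1), which were not. Group averages, fold changes and p-values of the authors were left out, and 0 columns belonged to other samples.

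The tests used edgeR 4.0.16 in R 4.3.3 (filterByExpr, TMM, quasi-likelihood test, Benjamini-Hochberg adjustment, threshold 0.05). CPM were computed from counts and TMM factors. Standard errors of log2 fold changes were taken from the fold change and its F statistic, and the 95% interval is 1.96 standard errors on each side. Rate ratios have exact conditional Poisson intervals. Permutation tests (exact, two-sided) used Python 3.11.15 with scipy 1.17.1. Scripts were tested on simulated data. Between replicates of a group, chi-square per degree of freedom was between 4.05 and 9.52, so no library repeats another. Control and IL-1β samples of equal number did not deviate together (correlations 0.075, 0.027 and -0.0050 for replicates 1, 2 and 3), so the main fit is unpaired.

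Alternatives were scaling by upper quartile or total counts, DESeq2 1.42.0, no filter on low counts, at least 10 counts in every sample, limma 3.58.1 on log2(CPM + 1) or log2(CPM + 0.1), an unmoderated test, the replicate number as a block and leaving out each library. The sums with overlapping neighbours and the ratio of Arg2 to Vti1b were added after the data were seen. The members and gene lists were chosen with earlier results of these data known. Genes named are all members, at most 4 called genes of each related list by adjusted p, genes set against a member, the most abundant markers and the 3 genes closest in pattern to Nos2, Gch1 and Slc7a2. Some listed genes enter the counts and medians but are not reported by name here. Others named (such as Dnajc12) are those behind small counts and were chosen after their values were seen. Overlaps were read from GENCODE M21 and promoters from RefSeq (GRCm38.p6).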

Additional observations from a re-analysis of the deposited data

How the results depend on the processing

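Slc7a2 and Arg2 kept their direction and their call under all alternatives run. The Arg2 counts may hold reads of Vti1b, and no alternative separated the 2 genes. The number of members higher was 3 and ranged from 2 to 4 over the alternatives, and the number lower was 0, or 0 to 1 with 1 library left out, the 1 being Gchfr without control replicate 2. Over the related lists, 6 higher became 3 with total-count scaling and 3 with the unmoderated test, and 3 to 5 with 1 library left out, while 9 lower became 3 with the unmoderated test and 6 to 8 with 1 library left out. Over all genes, 812 higher and 751 lower became 317 and 230 with the unmoderated test. With the replicate number as a block, 3 members were higher and 0 lower, the related lists gave 6 and 9, and all genes 859 and 812; the block changed no call of a member. Arg1 (-0.02) changed sign with limma on log2(CPM + 1) (0.030) or log2(CPM + 0.1) (0.041), with the unmoderated test (0.030), with the replicate block (0.025) and without control replicate 1 (0.265), IL-1β replicate 2 (0.0020) or IL-1β replicate 3 (0.070), and was never called. Its values with 1 library left out ran from -0.239 to 0.265. The log2 ratio of Ddah2 to Ddah1 (-0.07) was 0.081 without control replicate 2 and 0.013 without control replicate 3, in a range from -0.316 to 0.081. Nos2 passed the filter on low counts when control replicate 1, 2 or 3 or IL-1β replicate 3 was left out, and was then called, with adjusted p between 0.0048 and 0.0145. Its controls held 0, 0 and 1 counts, so Nos2 passed the filter only through its IL-1β libraries. These calls are therefore no further evidence of a difference. Among single genes, 325 alternative values kept direction and call, 41 lost the call, 6 gained it and 7 changed sign; the cause was not tested. Nos2, Nos3, Slc7a6 and Dnajc12 could not be tested with a minimum of 10 counts in every sample. Depth limits Nos2, Nos3, Gchfr, Pts and Ddah2, each with at most 92 counts in any library.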
